A study of Mus musculus with 6 samples.

Results

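The immunoglobulin genes of the mouse prostate were taken as all genes whose symbol names a constant gene of the heavy chain (Igha, Ighm, Ighd, Ighe and the Ighg genes), of the kappa chain (Igkc) or of the lambda chain (Iglc), or a variable gene of these chains (Ighv, Igkv and Iglv). The rule used symbols only and found 363 of the 34745 genes of the deposited table, 13 constant and 350 variable. The constant genes were 8 of the heavy chain, 1 of the kappa chain and 4 of the lambda chain, and the variable genes were 185 Ighv, 162 Igkv and 3 Iglv genes. RNA was sequenced from the prostates of 6 young adult male C57BL/6 mice. In the T + E2 group, 3 mice had carried a subcutaneous slow-release pellet of testosterone and estradiol for 12 weeks, a treatment made to model benign prostatic hyperplasia with bladder outlet obstruction. The 3 mice of the CON group had a skin incision alone, which was closed without a pellet. Prostate tissue was used undivided by cell type, and the sources do not say which lobes were taken. Every value below thus mixes epithelium, stroma, blood and any immune cells in the tissue. More cells of a type and more RNA per cell cannot be told apart.

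An antibody is built from heavy and light chains. In a developing B cell the heavy chain locus joins V, D and J segments and the light chain loci join V and J segments, so that each B cell clone transcribes its own pair of variable genes. The variable part is first joined to Ighm, which encodes the constant part of IgM, and class switching can later replace it with an Ighg gene (IgG), Ighe (IgE) or Igha (IgA). Plasma cells and plasmablasts transcribe these genes at far higher levels than resting B cells. In glands and mucosal tissue, polymeric IgA and IgM carry the J chain and are moved across the epithelium by the polymeric immunoglobulin receptor.

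Libraries held 14816146 to 16555549 counts on genes, and 3 counts, taken as the smallest amount told from none, were worth 0.183 to 0.208 CPM, that is, counts scaled by TMM to a common library size. These limits, and the intervals given for shares of counts, cover counting error only. CON replicate 1 stood apart from the other CON mice in the genes described here: its summed immunoglobulin CPM was 4.6 times the mean of CON replicates 2 and 3. Results that rest on it are therefore given with and without this library. The mouse was singled out by its high values in these same genes, so leaving it out favours rises. Adjusted p-values and calls from that fit show how far results depend on this mouse and are not separate evidence. The labelled tissue was checked by the summed CPM of 8 prostate epithelium markers, which was 37014.7 to 50627.9 in CON mice and 12269.1 to 15081.9 in T + E2 mice, with the secretory genes Pbsn and Tgm4 lower and Msmb higher in T + E2 mice. Of 7 seminal vesicle genes, the summed CPM was 0.629 to 4.11 in 4 libraries, 643 in T + E2 replicate 2 and 10322.4 in CON replicate 2, the library with the fewest immunoglobulin counts. The part of these genes in the results below was not tested, and without CON replicate 2, 30 of 162 tested immunoglobulin genes were called higher (4.07% of all tested genes).

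Sequences of 6 genes are shown, because the results turn on them and because they show how alike the variable genes are. They are coding bases of GENCODE M21 transcripts on build GRCm38, written 5′ to 3′ along the gene. Capitals mark bases that differ from the most similar other immunoglobulin gene, which is Ighv8-5 for Ighv8-8, Ighv11-1 for Ighv11-2, Igkv14-111 for Igkv14-126, and the partner gene for Iglv1 and Iglv2. For Igha the first 150 coding bases are given, without capitals, because no other gene of the set aligned with it over 100 bases or more; for the other genes the last 300 are given. Igha (ENSMUSG00000095079, chr12:113254830-113260236, minus strand) is the constant gene of IgA. Ighv8-8 (ENSMUSG00000104452, chr12:115294062-115294504, minus strand) had the lowest adjusted p of the set. Ighv11-2 (ENSMUSG00000096108, chr12:114048241-114048812, minus strand) and Igkv14-126 (ENSMUSG00000094345, chr6:67896172-67896642, plus strand) led the variable genes of CON replicate 1. Iglv1 (ENSMUSG00000076934, chr16:19085017-19085500, minus strand) and Iglv2 (ENSMUSG00000076940, chr16:19260401-19260859, minus strand) are the main lambda variable genes.
Igha: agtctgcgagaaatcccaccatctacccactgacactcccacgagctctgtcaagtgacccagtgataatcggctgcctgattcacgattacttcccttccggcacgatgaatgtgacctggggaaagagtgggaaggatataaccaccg
Ighv8-8: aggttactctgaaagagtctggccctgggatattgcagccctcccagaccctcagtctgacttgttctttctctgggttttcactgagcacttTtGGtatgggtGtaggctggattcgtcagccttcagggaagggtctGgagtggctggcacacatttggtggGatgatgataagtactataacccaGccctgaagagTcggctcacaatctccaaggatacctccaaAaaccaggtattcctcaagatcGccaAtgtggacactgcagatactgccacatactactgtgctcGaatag
Ighv11-2: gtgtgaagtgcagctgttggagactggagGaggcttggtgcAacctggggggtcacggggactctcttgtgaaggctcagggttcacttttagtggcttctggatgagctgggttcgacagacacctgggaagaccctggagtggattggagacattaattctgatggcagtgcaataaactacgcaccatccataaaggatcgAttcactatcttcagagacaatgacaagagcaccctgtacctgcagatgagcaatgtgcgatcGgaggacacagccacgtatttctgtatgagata
Igkv14-126: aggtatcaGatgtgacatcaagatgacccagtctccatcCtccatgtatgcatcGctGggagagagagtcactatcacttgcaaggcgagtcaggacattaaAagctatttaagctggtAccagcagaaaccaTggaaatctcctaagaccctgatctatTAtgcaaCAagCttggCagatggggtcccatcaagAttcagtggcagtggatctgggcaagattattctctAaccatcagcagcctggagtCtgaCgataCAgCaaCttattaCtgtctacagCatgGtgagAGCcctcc
Iglv1: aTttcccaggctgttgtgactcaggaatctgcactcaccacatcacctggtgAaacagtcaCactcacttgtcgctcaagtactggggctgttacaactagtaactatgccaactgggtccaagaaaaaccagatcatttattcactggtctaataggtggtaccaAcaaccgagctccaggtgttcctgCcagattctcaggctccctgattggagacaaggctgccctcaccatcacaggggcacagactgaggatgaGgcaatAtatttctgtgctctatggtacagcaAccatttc
Iglv2: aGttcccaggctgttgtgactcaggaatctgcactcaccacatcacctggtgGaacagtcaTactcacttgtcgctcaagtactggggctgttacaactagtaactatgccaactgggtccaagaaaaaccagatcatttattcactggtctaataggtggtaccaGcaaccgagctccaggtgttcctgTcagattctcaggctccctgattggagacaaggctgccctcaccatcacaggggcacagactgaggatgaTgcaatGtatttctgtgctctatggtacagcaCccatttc

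In Ighv11-2 only 4 of the 300 printed bases are capitals, in Iglv1 and Iglv2 8, in Ighv8-8 12 and in Igkv14-126 27. Of the 232 members with an annotated coding sequence, 108 were at least 95% identical to another member, 59 of 115 Ighv and 45 of 101 Igkv genes among them, and 4 were at least 99% identical. Counts of such genes are uncertain, because the counting could have split or dropped reads that fit more than 1 of them. The constant genes are easier to tell apart: Ighg2b and Ighg2c were 87.7% identical, and Ighm was 67.3% identical to its nearest member over 147 aligned bases, while Iglc2 and Iglc3 were 96.5% identical.

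Of the 363 genes, 223 had at least 1 count and 140 had none in any library. Most of the silent genes were annotated pseudogenes: 131 members are IG_V_pseudogene entries, and all of these together held 0 to 6 counts in a library. The filter on low counts left 136 genes to test. The 227 genes that were not tested held 1.24 to 2.05% of the immunoglobulin counts of a library.

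Taken as a sum, immunoglobulin transcripts took 0.041 to 0.295% of all counts. They summed to 36242, 6082 and 10234 counts in CON replicates 1, 2 and 3, and to 31179, 48860 and 39888 counts in T + E2 replicates 1, 2 and 3. As CPM, the CON mice had 2400.1, 400 and 643 and the T + E2 mice 2156.9, 2975 and 2661.9. The T + E2 mice lay close together and far above CON replicates 2 and 3, but CON replicate 1 lay among them, so that the groups overlapped. The mean was 1147.7 ± 1091.4 CPM (SD, n = 3) for CON and 2597.9 ± 413 CPM (SD, n = 3) for T + E2, a ratio of 2.26. Without CON replicate 1 the ratio was 4.98. Constant and variable genes each gave a ratio of 2.26. By class it was 2.27 for Ighv, 2.27 for Igkv, 2.16 for Iglv, 2.20 for heavy constant, 2.43 for kappa constant and 1.96 for lambda constant genes. The order of the mice was not the same in every class: T + E2 replicate 1 had the lowest Igkv sum of its group (290 CPM, beside 421 and 385) and the highest Iglv sum (54.1 CPM, beside 50.5 and 30.8).

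Gene by gene, T + E2 and CON were compared with the quasi-likelihood test of edgeR. P-values of all 15580 tested genes were adjusted together (Benjamini-Hochberg), and calls required an adjusted p below 0.05 with a log2 fold change beyond 1 in size. Of the 136 tested immunoglobulin genes, 31 were called higher in the T + E2 group, where 4.27% of all tested genes were called higher, and 0 were called lower, where 3.38% of all tested genes were. At an unadjusted p under 0.05, 55 were higher and 0 lower, beside 17.4% and 17.1% of all tested genes. DESeq2, which gave an adjusted p for 176 of the immunoglobulin genes, called 53 higher, including all 31, and 0 lower, beside 4.05% and 3.08% of all genes it tested. The log2 fold change was positive for 122 and negative for 14 of the 136 genes, with a median of 1.41 beside a median of -0.002 over all tested genes. A gene passes the filter with enough counts in 3 libraries, so genes low in CON mice can enter through T + E2 mice alone. With no filter, 192 immunoglobulin genes were positive and 31 negative, beside 11214 and 11090 of all genes. The genes are measured in the same 6 mice and are not independent of each other. In 45 of the 136 genes every T + E2 mouse lay above every CON mouse (33.1%, against 20.0% of all tested genes), and in 0 every T + E2 mouse lay below (20.7% of all tested genes). The 31 called genes were 1 constant gene, 13 of 60 tested Ighv genes, 17 of 63 tested Igkv genes and 0 of 3 Iglv genes, where 1 Iglv gene had an unadjusted p under 0.05 and DESeq2 called 0. Without CON replicate 1, 153 genes were tested and 70 were called higher (4.52% of all tested genes), 25 of them called with all 6 libraries too, and 0 were called lower (2.61% of all tested genes), with 0 lower at an unadjusted p under 0.05.

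CON replicate 1 was the highest of the 3 CON mice in 93 of the 136 tested genes (68.4%, against 35.5% of all tested genes) and lay above the lowest T + E2 mouse in 78 (57.4%, against 65.6%). In 101 genes (74.3%) all T + E2 mice lay above CON replicates 2 and 3, as they did in 25.9% of all tested genes. CON replicate 1 was the highest of all 6 libraries in 22 immunoglobulin genes (16.2%), near the 16.4% over all tested genes, whereas CON replicates 2 and 3 were the highest in 0.735% and 2.21%.

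**Figure D1:**
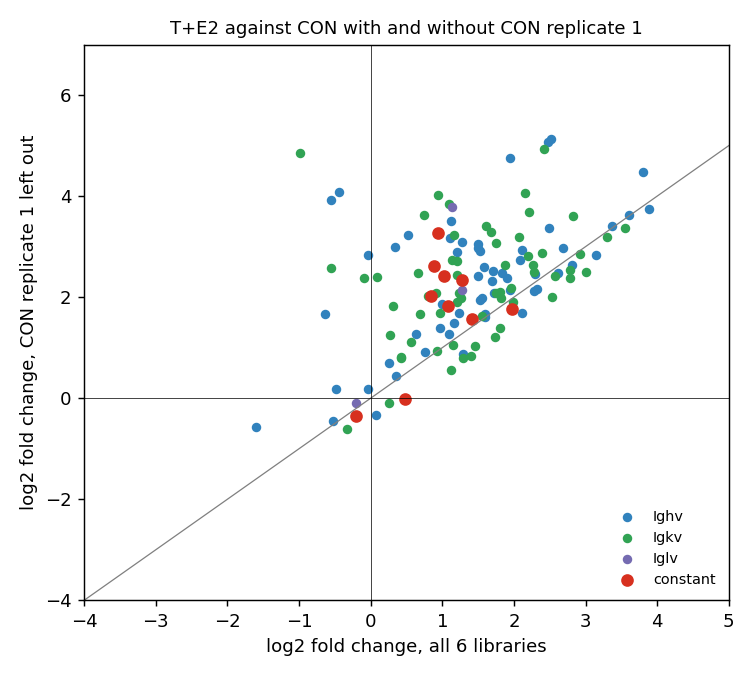
Each point is 1 of the 136 immunoglobulin genes tested in both fits, with the log2 fold change (T + E2 against CON) from all 6 libraries on the x axis and from the 5 libraries without CON replicate 1 on the y axis, and the grey line marks equal values. In 106 of the 136 genes the point lies above the line, and the constant genes (red) other than Igha, Ighg1 and Ighg2c lie above it too.

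The constant gene of IgA, Igha, was the only constant gene called higher with all 6 libraries. It had 853, 1219 and 1810 counts in CON replicates 1, 2 and 3, and 6930, 4767 and 3325 counts in T + E2 replicates 1, 2 and 3. Every T + E2 mouse lay above every CON mouse, and CON replicate 1 had the lowest count of all. The mean rose from 83.5 ± 28.8 CPM to 331 ± 133 CPM (SD, n = 3 each), a log2 fold change of 1.98 ± 0.33 (SE, adjusted p = 0.00494, 6 of 6 mice apart). Leaving out each mouse in turn gave log2 fold changes of 1.62 to 2.27 with adjusted p of 0.00695 to 0.0181, and without CON replicate 1 it was 1.77.

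IgM transcripts showed another pattern. Ighm (chr12:113418558-113422730), the constant gene of IgM, had 16367, 1024 and 1572 counts in CON replicates 1, 2 and 3, and 6852, 15187 and 14972 counts in T + E2 replicates 1, 2 and 3. CON replicate 1 had the highest value of all 6 mice, 1083.9 CPM, and the other CON mice had 67.3 and 98.8 CPM. With all libraries Ighm had a log2 fold change of 0.94 ± 0.93 (SE, adjusted p = 0.512). Without CON replicate 1 it was 3.27 ± 0.37 (SE, adjusted p = 0.00219), so that its call depended on this mouse.

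The 4 Ighg genes encode the constant parts of the IgG subclasses, and none of them was called, with 1 at an unadjusted p under 0.05 and 0 called by DESeq2. Ighg2b, the most counted of them in T + E2 mice, had 548, 290 and 560 counts in CON mice and 421, 2687 and 724 in T + E2 mice, a log2 fold change of 1.41 ± 0.59 (SE, adjusted p = 0.13). T + E2 replicate 2 had the highest value, and without it the log2 fold change was 0.36 (adjusted p = 0.515), while without T + E2 replicate 1 it was 1.81 (adjusted p = 0.0462). Ighg3 had 689, 8 and 170 counts in CON mice and 269, 723 and 627 in T + E2 mice, with CON replicate 1 again among the high libraries (log2 fold change 0.88 ± 0.95, adjusted p = 0.549, and 2.62 with adjusted p = 0.085 without CON replicate 1). Ighg2c, which C57BL/6 mice carry in place of Ighg2a, had 285, 273 and 562 counts against 294, 601 and 78 (log2 fold change -0.21 ± 0.57, adjusted p = 0.825). Ighg1 had 9, 88 and 40 counts against 103, 52 and 32 (log2 fold change 0.48 ± 0.70, adjusted p = 0.671). The groups overlapped in all 4 genes, and the spread among mice of a group reached the size of the difference. Ighd, the constant gene of IgD on naive B cells, had 11, 0 and 8 counts against 5, 19 and 3, and Ighe had 0, 0 and 2 counts against 1, 0 and 0, both too low to test.

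**Figure D2:**
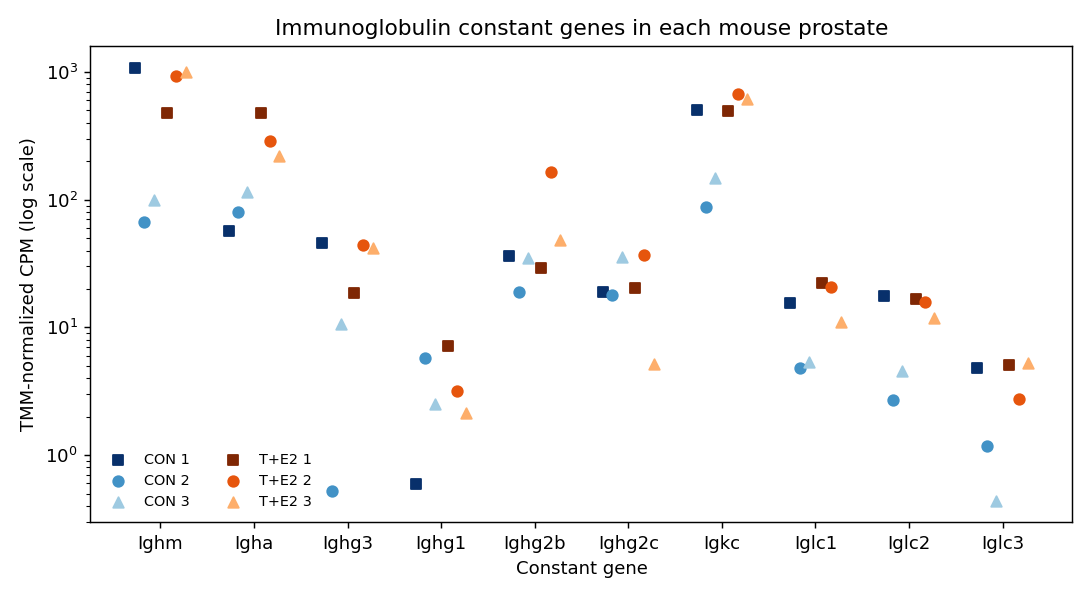
TMM-normalized CPM (y axis, log scale) of the 10 tested constant genes (x axis), with 1 point per mouse in blue for CON and orange for T + E2. Igha is the only gene in which the 3 T + E2 mice lie above the 3 CON mice. In Ighm, Ighg3, Igkc, Iglc1, Iglc2 and Iglc3 the dark blue square of CON replicate 1 lies with the T + E2 mice.

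Because a plasma cell mostly transcribes 1 isotype, the heavy chain genes were also read as shares of the heavy chain constant counts within a library. The Igha share was 4.55% in CON replicate 1 (exact 95% interval 4.25 to 4.85%), 42.0% in CON replicate 2 (40.2 to 43.8%) and 38.3% in CON replicate 3 (36.9 to 39.7%). In the T + E2 mice it was 46.6% in replicate 1 (45.8 to 47.4%), 19.8% in replicate 2 (19.3 to 20.3%) and 16.8% in replicate 3 (16.3 to 17.4%). Mice of 1 group thus differed far beyond counting error, and the group means of 28.3 ± 20.6% and 27.7 ± 16.4% (SD, n = 3 each) differed by -0.54 percentage points. This difference rested on single mice: without CON replicate 1 the CON mean was 40.1% and the difference -12.4 points, and without CON replicate 2 the difference was 6.32 points. Ighm took 87.2, 35.3 and 33.3% in CON replicates 1, 2 and 3, and 46.1, 63.2 and 75.8% in T + E2 replicates 1, 2 and 3. Per length, the Igha to Ighm ratio of FPKM was 0.0385, 0.88 and 0.851 in CON mice and 0.748, 0.232 and 0.164 in T + E2 mice, so Ighm had the higher FPKM in every library.

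**Figure D3:**
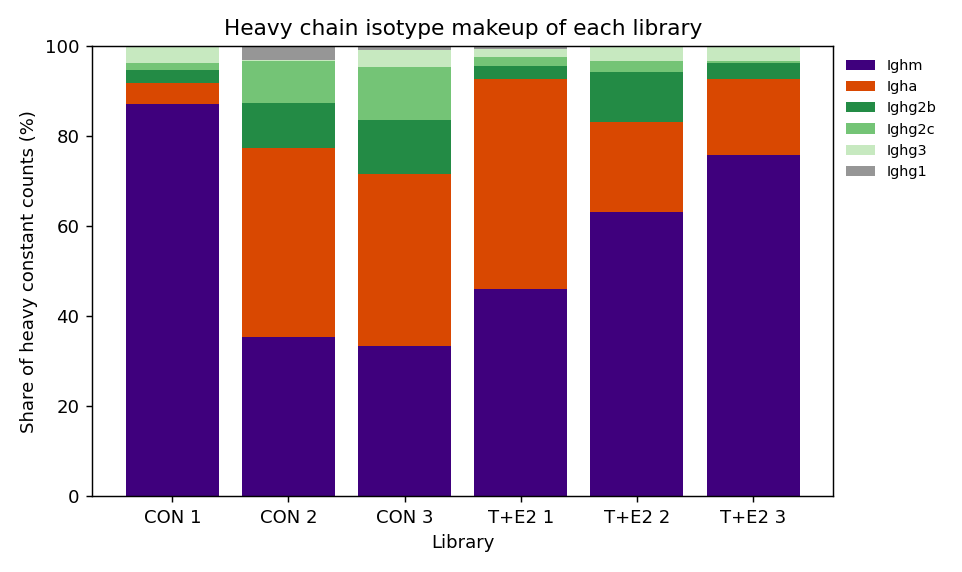
Stacked bars give, for each library on the x axis, the percentage of heavy chain constant counts (y axis, 0 to 100%) on Ighm, Igha and the 4 Ighg genes. Ighm takes 87.2% of CON replicate 1, and Igha takes 38.3 to 46.6% of CON replicates 2 and 3 and T + E2 replicate 1.

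Among light chains, Igkc (chr6:70726435-70726966), the constant gene of the kappa chain, dominated. It had 7564, 1331 and 2361 counts in CON replicates 1, 2 and 3, and 7165, 11074 and 9286 in T + E2 replicates 1, 2 and 3. CON replicate 1 lay above T + E2 replicate 1 and the other CON mice far below all T + E2 mice. The log2 fold change was 1.28 ± 0.56 (SE, adjusted p = 0.145), and 2.34 ± 0.26 (SE, adjusted p = 0.00189) without CON replicate 1. On the FPKM scale, Igkc reached 890 to 1257.3 in T + E2 mice, Ighm 204 to 455 and Igha 74.8 to 153, and no range touched the next.

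Of the lambda genes, Iglc1 had 233, 73 and 85 counts in CON mice and 321, 341 and 167 in T + E2 mice (log2 fold change 1.08 ± 0.46, adjusted p = 0.135). Iglc2 had a log2 fold change of 0.84 ± 0.58 (adjusted p = 0.339) and Iglc3 of 1.02 ± 0.70 (adjusted p = 0.333), and Iglc4 had 1 count in 1 library. Without CON replicate 1, Iglc1, Iglc2 and Iglc3 were called higher, with log2 fold changes of 1.83, 2.02 and 2.42. Iglv1 had 360, 106 and 107 counts against 569, 529 and 287 (log2 fold change 1.27 ± 0.49, adjusted p = 0.108), Iglv2 had 233, 18 and 10 against 169, 249 and 164 (log2 fold change 1.14 ± 0.91, adjusted p = 0.413). Iglv1 and Iglv2 were 96.9% identical, as the printed sequences show, and both were called without CON replicate 1, with 2.14 and 3.79. Iglv3 had 46, 16 and 62 counts against 44, 52 and 11 and differed little (log2 fold change -0.20 ± 0.59, adjusted p = 0.84). The kappa share of light chain constant counts was 93.0, 91.0 and 93.5% in CON mice and 91.8, 94.5 and 95.6% in T + E2 mice, a difference of 1.51 percentage points between the means with overlapping groups.

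The variable genes that were called rose by log2 fold changes of 1.70 to 3.89. All 31 called genes, Igha included, had groups that did not overlap, which a call from 3 mice a group itself favours. Their median was 2.30, over genes whose call required a log2 fold change beyond 1. The 5 largest rises were in Ighv2-3, Ighv1-61, Ighv1-34, Igkv6-17 and Ighv8-8. Ighv8-8 had 9, 8 and 9 counts in CON replicates 1, 2 and 3, and 54, 99 and 118 in T + E2 replicates 1, 2 and 3. The CON mice were nearly equal and CON replicate 1 did not stand apart, and the log2 fold change was 3.37 ± 0.35 (SE, adjusted p = 0.000553). Igkv6-17 had 5, 8 and 8 counts against 35, 110 and 106 (log2 fold change 3.55 ± 0.48, adjusted p = 0.00199). Ighv1-34 had 4, 1 and 7 counts against 83, 47 and 18 (log2 fold change 3.61 ± 0.72, adjusted p = 0.0111). Ighv2-3 had 2, 0 and 6 counts against 81, 24 and 15 (log2 fold change 3.89 ± 0.95, adjusted p = 0.0251), and its call was lost without CON replicate 1, without CON replicate 2 and without T + E2 replicate 1. These CON counts are low, so the size of each rise is uncertain. All 5 genes passed the filter only through the T + E2 mice, which favours rises among them. Ighv1-61 had 3, 0 and 2 counts, no more than the detection limit in any CON mouse, against 13, 27 and 34, a ratio of summed counts of 14.9 with a counting interval of 6.11 to 47.3 (adjusted p = 0.0066). Ighv1-34, Ighv1-61, Ighv2-3 and Igkv6-17 have a member at least 95% identical to them (95.1 to 98.6%), and so has Ighv8-8 (96.1%).

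Rises were also seen in variable genes with many counts. Ighv6-3, the Ighv gene with the most counts over all libraries, had 100, 20 and 43 counts in CON mice and 225, 205 and 272 in T + E2 mice (log2 fold change 2.12 ± 0.47, adjusted p = 0.0178). Its call was lost without CON replicate 3 or T + E2 replicate 3. Igkv10-96 had 99, 46 and 68 counts against 231, 341 and 148 (log2 fold change 1.75 ± 0.34, adjusted p = 0.01). In both genes the lowest T + E2 mouse lay above the highest CON mouse. Ighv1-26 (log2 fold change 1.91 ± 0.59, adjusted p = 0.056) and Ighv3-6 (0.97 ± 0.32, adjusted p = 0.0692) had groups that did not overlap but were not called. The other leading genes, Ighv7-3, Ighv9-3, Igkv1-110, Igkv15-103, Igkv1-117, Igkv19-93, Igkv1-135, Igkv3-2 and Igkv6-23, overlapped between groups, with log2 fold changes of 0.56 to 1.68 and adjusted p of 0.274 to 0.618. Of these 9, 4 were called higher without CON replicate 1, Ighv7-3 (3.51, adjusted p = 0.00567), Igkv1-110 (3.85, adjusted p = 0.0108), Igkv1-117 (2.73, adjusted p = 0.0202) and Igkv19-93 (2.02, adjusted p = 0.0431). By family, 7 of 31 tested Ighv1 genes, 2 of 4 Ighv14 genes, 2 of 2 Igkv10 genes, 2 of 2 Igkv17 genes, 2 of 3 Igkv9 genes, 2 of 6 Igkv8 genes, 2 of 8 Igkv6 genes and 2 of 15 Igkv4 genes were called higher. These stand beside 31 of all 136 tested immunoglobulin genes and 4.27% of all tested genes. Most families have few tested genes, so the counts do not set 1 family apart from another. The 2 Igkv17 genes are 97.5% identical to each other. Other families had at most 1 called gene, and none of the 3 tested Igkv1 genes was called.

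Each mouse had its own leading variable genes. In CON replicate 1, Ighv11-2 took 12.1% of the Ighv counts (11.1 to 13.2%) and Igkv14-126 took 14.3% of the Igkv counts (13.3 to 15.3%). This pair is known to encode antibodies to phosphatidylcholine that B-1 cells make. Ighv11-2 had 455, 5 and 9 counts in CON mice and 44, 253 and 35 in T + E2 mice, and Igkv14-126 had 707, 38 and 22 against 63, 414 and 72. Both genes were high in CON replicate 1 and, less so, in T + E2 replicate 2, and low in the other 4 mice. Their log2 fold changes were -0.56 ± 1.36 (adjusted p = 0.804) and -0.55 ± 1.20 (adjusted p = 0.782), and without CON replicate 1 they were 3.93 (adjusted p = 0.0459) and 2.57 (adjusted p = 0.0935). Ighv12-3 and Igkv4-91, another pair known from such antibodies and chosen after their values were seen, had 28, 2 and 1 counts against 15, 3 and 26, and 352, 2 and 2 counts against 42, 72 and 69. In Ighv11-2 the counts may include reads of Ighv11-1, which is 98.9% identical to it.

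The leading genes of the other libraries were Ighv3-6 (6.96%) and Igkv15-103 (8.61%) in CON replicate 2, and Ighv9-3 (9.86%) and Igkv6-23 (11.0%) in CON replicate 3. In T + E2 replicate 1 they were Ighv6-3 (6.37%) and Igkv10-96 (5.52%), in T + E2 replicate 2 Ighv1-26 (7.82%) and Igkv3-2 (7.43%), and in T + E2 replicate 3 Ighv6-3 (6.51%) and Igkv1-110 (9.97%). Only Ighv6-3 led in more than 1 mouse. Over the 106 Ighv genes with a count, the shared part of the distributions (the sum of the smaller share per gene) was 63.9 to 66.4% between T + E2 mice, 49.9 to 60.9% between CON mice and 53.0 to 64.5% between mice of different groups. Over 101 Igkv genes it was 62.9 to 66.7%, 46.5 to 61.0% and 54.0 to 67.9%. These are descriptions, since the pairs share libraries and the CON libraries hold fewer counts.

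**Figure D4:**
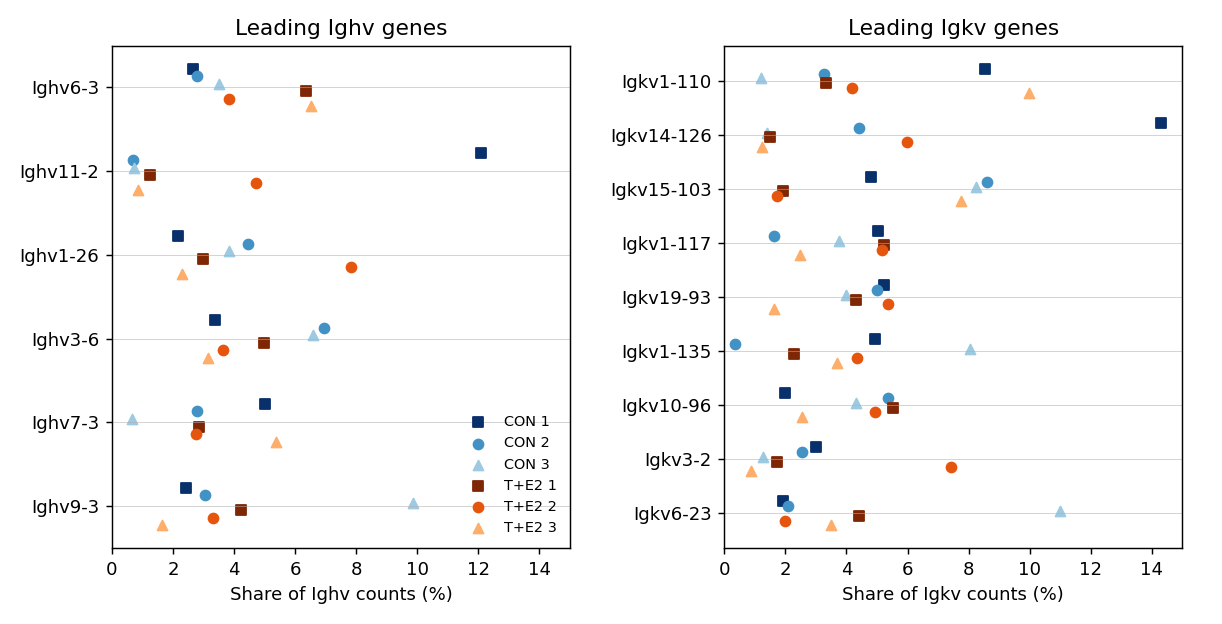
For the Ighv genes (left) and Igkv genes (right) with the most counts overall or in a library, the x axis gives the percentage of all Ighv or Igkv counts of that library, with 1 point per mouse (blue CON, orange T + E2). CON replicate 1 (dark blue squares) reaches 12.1% in Ighv11-2 and 14.3% in Igkv14-126.

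Counts were spread over more Ighv genes in T + E2 mice. The effective number of genes, the inverse of the summed squared shares, says how many equally used genes would give the same concentration. For Ighv it was 26.3, 33.7 and 25.4 in CON replicates 1, 2 and 3, and 40.1, 36.4 and 40.7 in T + E2 replicates 1, 2 and 3. The groups did not overlap, with means of 28.5 ± 4.54 and 39.1 ± 2.36 (SD, n = 3 each), and an exact permutation test of 3 against 3 mice cannot give a p below 0.1. Thinned to the 718 counts of the shallowest library, the values were 25.5, 33.7 and 25.1 against 38.4, 34.9 and 39.0, and the groups still did not overlap. For Igkv the effective number was 19.0, 34.6 and 24.3 against 40.3, 33.2 and 31.7, and CON replicate 2 lay above 2 of the T + E2 mice. It took 9 to 13 Ighv genes to reach 50% of the counts in CON mice and 14 to 16 in T + E2 mice. The ratio of Igkv to Igkc counts was 0.645 to 0.668 in CON mice and 0.584 to 0.625 in T + E2 mice, and that of Ighv to heavy constant counts overlapped (0.201 to 0.26 and 0.211 to 0.237).

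**Figure D5:**
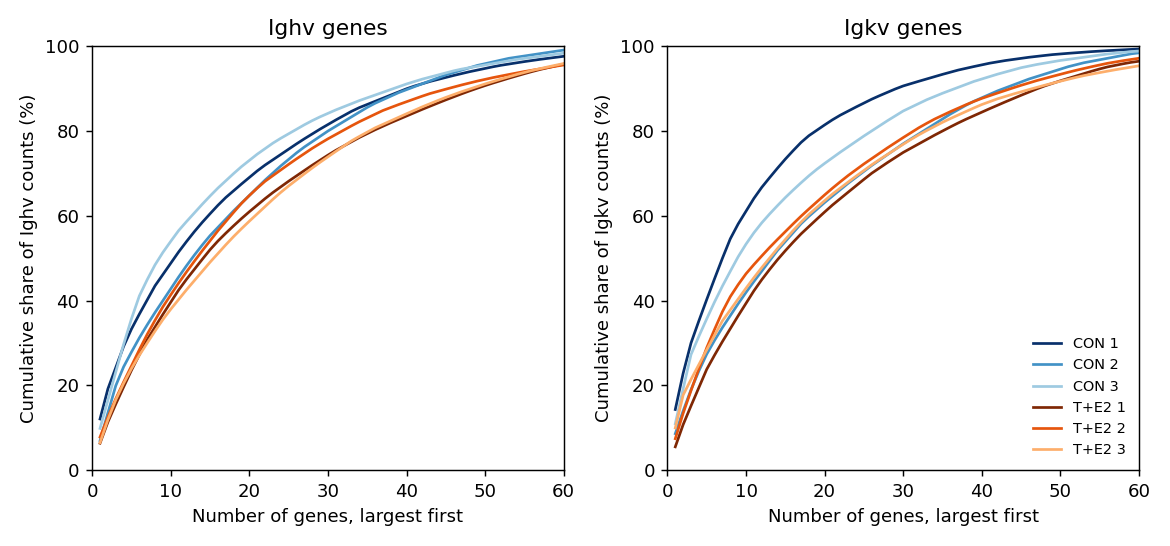
Cumulative percentage of the Ighv (left) and Igkv (right) counts of a library (y axis) against the number of genes, taken from the most to the least counted (x axis), with 1 line per mouse (blue CON, orange T + E2). The curves of CON replicate 1 and CON replicate 3 rise fastest, reaching 50% with 11 and 9 Ighv genes.

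Genes that act with immunoglobulins were read in the same fit. Of 14 tested genes of antibody-secreting cells, 0 were called higher or lower, beside 4.27% and 3.38% of all tested genes. At an unadjusted p under 0.05, 7 were higher and 0 lower, beside 17.4% and 17.1% of all tested genes. DESeq2 called 2 higher, beside 4.05% of all genes it tested. The median log2 fold change of the 14 was 0.30. Jchain, which links polymeric IgA and IgM, had 1439, 333 and 520 counts in CON mice and 985, 2388 and 1743 in T + E2 mice, with CON replicate 1 again above a T + E2 mouse (log2 fold change 1.14 ± 0.52, adjusted p = 0.16). Without CON replicate 1, Jchain (2.01), Pou2af1 (2.89), Mzb1 (2.19) and Irf4 (1.21) were called higher, 4 of the list, and 0 lower. Of all genes tested in that fit, 4.52% were called higher and 2.61% lower. In that fit Derl3 (-0.32), Eaf2 (-0.34) and Creld2 (-0.05) had negative values and Slamf7 was at 0.01. The other tested genes of the list were positive there but not called. Xbp1 and Sdc1, which secretory epithelium also expresses, were not called. Of 6 tested B cell genes, Cd79b, a subunit of the B cell receptor, was called higher, with 16, 11 and 7 counts against 60, 46 and 41 (log2 fold change 2.11 ± 0.36, adjusted p = 0.00565), and the median of the 6 was 0.28. Its partner Cd79a had 30, 4 and 12 counts against 13, 23 and 16 (adjusted p = 0.867). At an unadjusted p under 0.05, 2 of the 6 were higher and 1 lower. Bank1 was lower in every T + E2 mouse than in every CON mouse (-0.79, adjusted p = 0.0606). Ebf1 was also negative (-0.21), and the other tested genes of the list were positive. Without CON replicate 1, Cd79b (2.46), Ms4a1 (1.31) and Cd22 (3.1) were called higher, 3 of the list, and 0 lower. In that fit Bank1 was -0.73 and Ebf1 -0.12. Rag2 and Dntt, which act in V(D)J joining, were at 0 counts in every library.

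Pigr, the receptor that carries polymeric IgA and IgM through epithelium, had 1373.1 to 1793.8 CPM in CON mice and 12012.7 to 17602.6 CPM in T + E2 mice (log2 fold change 3.21 ± 0.18, adjusted p = 3.1e-05). Its values in CON mice lay together, and CON replicate 1, with its high Ighm count, did not stand apart in Pigr. Fcamr, an Fc receptor for IgA and IgM (1.57), and Fcgr2b, the inhibitory IgG receptor (1.14), were also called higher. These were 3 of 8 tested genes of transport and Fc receptors, with a median of 0.81, beside 4.27% of all tested genes called higher. The call of Fcgr2b was lost without CON replicate 2, CON replicate 3 or T + E2 replicate 2 (log2 fold changes of 0.98, 1.07 and 0.97). Of 9 tested homing and survival genes, 2 were called higher, beside 4.27% of all tested genes. Ccl28, a chemokine that attracts IgA plasma cells, had 24, 14 and 5 counts against 767, 1950 and 1450 (log2 fold change 6.57 ± 0.47). Cxcl13, a B cell chemokine (1.08 ± 0.28, adjusted p = 0.032), lost its call in 4 of the 6 fits that left out a mouse. At an unadjusted p under 0.05, 4 of the 9 were higher and 1 lower, beside 17.4% and 17.1% of all tested genes. The median of the 9 was 0.36. Cxcl12 was lower in every T + E2 mouse than in every CON mouse (-0.58, adjusted p = 0.0236) but was not called. Tnfsf13 (-0.57) and Tnfsf13b (-0.65) were also negative, and the other tested genes of the list were positive.

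Markers of other immune cells were counted beside these results. Of all tested genes, 4.27% were called higher and 3.38% lower, and 17.4% and 17.1% were higher and lower at an unadjusted p under 0.05. Of 9 tested T cell markers, 0 were called higher (0 at an unadjusted p under 0.05, and 0 by DESeq2) and 1, Thy1, was called lower, and the summed CPM of the 13 listed was 46.1 to 66.1 in CON mice and 29.6 to 37.3 in T + E2 mice, highest in CON replicate 1. Most of that sum was Thy1: the other 12 markers summed to 21.4, 12.3 and 9.49 CPM in CON replicates 1, 2 and 3 and to 13.7, 15.6 and 9.54 CPM in T + E2 replicates 1, 2 and 3, with overlapping groups. Of 11 macrophage markers 3 were called higher (Itgam, Mrc1 and Cd163, with the call of Mrc1 lost without CON replicate 3 or T + E2 replicate 2). The summed CPM of the list was 292 to 399 in CON mice and 469 to 693 in T + E2 mice. A further Itgam entry, not tested, held 74 counts in CON replicate 2, where the tested entry had 71, and at most 1 in any other library. The log2 fold change of the tested entry, 1.67, may therefore be too large, and was 1.39 to 2.01 with a mouse left out. Of the lymph node markers, Ccl19, Ccl21a and Madcam1 were at 0 counts in every library, and 0 genes of the list passed the filter. The summed CPM of the list was 0.265 in CON replicate 1 and at most 0.426 in any library. Ccl21a has more than 1 entry, and reads that fit several entries could have been dropped. The part of T cells, macrophages and lymph node tissue in the results was not tested.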

How the data were processed

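Total RNA of prostate tissue was made into TruSeq paired-end libraries and sequenced on an Illumina HiSeq X-ten. The authors deposited 1 table with raw read counts per gene and FPKM values, that is, counts per gene length and library size. The submitters' processing notes name Bowtie2, TopHat and HTSeq, and the annotation, the build and the strand setting are not given in the sources used here; all 363 members overlapped GENCODE M21 genes on GRCm38, so coordinates are given on that build. Replicate numbers and groups came from the labels, and 3 mice a group are separate animals.

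Counts were filtered with filterByExpr (minimum count 10, total 15), scaled by TMM and fitted in edgeR 4.0.16 (R 4.3.3) with glmQLFit and glmQLFTest, both groups and no covariate, and p-values were adjusted by Benjamini-Hochberg over 15580 genes. FPKM served for levels between genes and for limma 3.58.1 on log2(FPKM + 1) and log2(FPKM + 0.1), for genes that reached an FPKM of 0.1 in 3 libraries or more. Other alternatives were DESeq2 1.42.0, median-of-ratios and total-count scaling, scaling without immunoglobulin genes, no filter, the adjusted p alone, a replicate block and each mouse left out. The fit without CON replicate 1 over the genes of the full fit was chosen after seeing the data. Each standard error was computed as log2 fold change over the square root of F. Intervals of shares are exact (Clopper-Pearson, 95%). Similarity was found with BLAST+ 2.17.0 over at least 100 aligned bases. The procedure was tested on simulated data.

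The members and lists were chosen with earlier results of these data known. Named genes are all constant and Iglv genes, the 6 Ighv and 6 Igkv genes with the most counts, the leading Ighv and Igkv gene of each library, the 5 largest rises among called genes without overlap (0 genes qualified as falls), and up to 4 called genes of each of 10 lists with Jchain and Pigr; others are named as values of a list.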

Additional observations from a re-analysis of the deposited data

How the results depend on the processing

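Igha kept its call under every alternative. The 31 genes called higher became 53 with DESeq2 and 24 to 70 when a mouse was left out, and the variable genes among them (30) became 52 with DESeq2 and 23 to 64. Constant genes called higher numbered 1 to 6 and genes called lower 0 to 1 with a mouse left out. The highest counts came without CON replicate 1, and that fit over the genes of the full fit called 67 genes, 61 variable and 6 constant. The 1 lower call was Ighv1-15 without CON replicate 2 and Ighv8-12 without T + E2 replicate 1, named after their values were seen. The log2 ratio of the summed CPM was 1.18 and ranged from 0.772 to 2.32 with a mouse left out, highest without CON replicate 1. The Igha share difference of -0.54 percentage points ranged from -12.4 to 6.32. Over all 10 gene lists, 13 genes were called, 6 of them in the 5 lists of genes that act with immunoglobulins. Over all lists it was 21 at the adjusted p alone and 10 to 17 with a mouse left out.

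Of the 136 tested genes, 27 changed direction under at least 1 alternative, 8 of them with the replicate block, and 0 of these 27 were called with all libraries. Of the named genes, 6 did so. With a mouse left out, Iglv3 ranged from -0.58 to 0.22, Ighg2c from -0.91 to 0.24, Ighg1 from -0.16 to 1.39 and Igkv15-103 from -0.58 to 1.12, Ighv11-2 from -1.94 to 3.93 and Igkv14-126 from -1.88 to 2.57. Ighv11-2 was 0.85 and 1.31 with limma at pseudocounts of 1 and 0.1, and Igkv14-126 was 0.43 and 0.52. Without CON replicate 1 over the genes of the full fit, Ighv11-2 was 3.93, Igkv14-126 2.57 and Ighg1 -0.0. The cause was not tested.

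Same-numbered mice did not deviate together (correlations of -0.0516, 0.0275 and 0.0463), and 1 of 6 libraries correlated best with its own number, so the numbers do not pair the mice. With the replicate block 29 genes were called higher, and Ighv11-2 was 0.97 and Igkv14-126 0.61. With 3 mice a group and an IgM-rich control among them, the data limit calls for genes in which that mouse stands apart, and low CON counts limit the size of rises.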

Other observations

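The position of the transcribed variable genes along their loci differed between mice. The count-weighted median distance from Igkj1, the first kappa J segment, was 2017.6 kb in CON replicate 1, 1495.1 kb in CON replicate 2 and 1283.8 kb in CON replicate 3, and 1537.2, 1887.3 and 1438.2 kb in T + E2 replicates 1, 2 and 3. The groups overlapped, and the mice with high Igkv14-126 counts, CON replicate 1 and T + E2 replicate 2, had the largest distances. For Ighv the distance from Ighj1 was 1049.2, 1227.5 and 1093.6 kb in CON mice and 1005.0, 1278.8 and 1005.0 kb in T + E2 mice, beside a median of 1182.4 kb over the 113 Ighv genes annotated as IG_V_gene, and the groups overlapped.

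Of the Ighv families, Ighv1 took the largest share in every library, 41.5, 46.1 and 43.8% of the Ighv counts in CON mice and 40.2, 51.2 and 39.7% in T + E2 mice. Ighv14 took 1.83% in CON replicate 1 and 5.58 to 10.3% in the other 5 libraries. Igkv4, the kappa family with the most members, took 13.7 to 20.7% and was not the most counted family in every library (Igkv6 took 19.8% in CON replicate 3), and Igkv15, which has 1 functional gene, took 1.93 and 1.71% in T + E2 replicates 1 and 2 and 4.82 to 8.61% in the other libraries.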
